A study of Mus musculus with 24 samples.

Results

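The 10 genes described here encode enzymes of glycolysis: the hexokinases Hk1 and Hk2, the phosphofructokinase subunits Pfkl and Pfkp, the aldolases Aldoa and Aldoc, the phosphoglycerate mutase Pgam1, the enolase Eno1 and the lactate dehydrogenase subunits Ldha and Ldhb. They were taken by gene symbol, from a list drawn up with earlier results of these data known. All 10 were among the 23119 genes listed, and all 10 were among the 12105 genes tested, which had a mean of at least 1 FPKM (a fragment count divided by transcript length in kilobases and by the mapped fragments of the library) over the libraries. RNA came from JB4/EI7HZ2 cells, female mouse embryonic stem cells (mESCs) whose parents were of the JF1 and B6 strains, and from 1 SmcHD1-mutant line made from them by CRISPR-Cas9 and labelled KO. SmcHD1 is a chromosomal protein of the inactive X. Both genotypes were sampled as mESCs, at day 7 and day 9 of differentiation toward neurectoderm, and as neural stem cells (NSCs). Each of these 8 groups had 3 replicates, which gave 24 libraries, and the study describes replicates as biologically independent. Because each genotype was 1 line, an effect of the mutation and a difference between lines cannot be told apart.

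The groups also differed in culture. mESCs grew in serum with MEK and GSK3 inhibitors and LIF. Day 7 and day 9 cells passed through an epiblast-like state under Activin and FGF2 and were then grown as aggregates in serum replacement. NSCs were derived from mESCs by a separate route and were grown attached, in N2 medium with insulin, FGF2 and EGF. The media of mESCs and of NSCs both held G418 and Zeocin, so that cells kept both X chromosomes. Stage and medium therefore cannot be told apart in comparisons with mESCs or NSCs, while day 7 and day 9 cells came from 1 protocol.

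Glycolysis splits glucose into pyruvate and yields ATP, and lactate dehydrogenase then turns pyruvate into lactate. Hexokinase traps glucose in the cell, phosphofructokinase is the main point of control, aldolase splits the 6-carbon sugar, and phosphoglycerate mutase and enolase lead on to pyruvate. Several steps have isozymes with their own tissue pattern: Hk2 and Pfkp are common in proliferating cells, Hk1 in brain, Aldoc in brain and astrocytes, and Ldhb in oxidative tissues. Pluripotent cells are known for high glycolysis, and Ldha, Hk2, Aldoa, Pgam1 and Eno1 are known targets of the hypoxia-inducible factors (HIF) and of Myc.

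The labels were checked on other genes first. Smchd1 lay between 12.96 and 26.41 FPKM in WT libraries and between 1.824 and 4.399 FPKM in KO libraries, and its RNA was lower in KO at every stage. The summed FPKM of 6 pluripotency markers lay between 2473 and 2979 in mESC libraries and between 5.718 and 12.56 in NSC libraries, with Zfp42 at 0 in every NSC library. The summed FPKM of 5 NSC and radial glia markers lay between 85.38 and 150.1 in mESC libraries and between 3964 and 6987 in NSC libraries. At day 7 the 4 mesoderm markers summed to between 56.7 and 154.6 FPKM in WT and between 1.87 and 3.329 FPKM in KO, and the 4 endoderm markers to between 20.14 and 51.07 FPKM in WT and between 0.4961 and 1.475 FPKM in KO. T, Meox1, Sox17 and Foxa2 of these lists passed as lower in KO, as did Vim and Olig2 of the NSC list. The neurectoderm marker Sox1 passed as higher. With every library scaled to the same FPKM sum, 0 of the 4 neurectoderm markers passed. In bulk RNA, fewer cells of a type and less RNA per cell cannot be told apart.

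The promoter of each member was taken from RefSeq (build GRCm38.p6) as the 250 bases before and 50 after a transcript start. Every member had at least 1 start that matched the mm9 genome of the deposited files exactly, and the start nearest to the deposited 5′ end was used. The core letters of the HIF and Myc binding motifs, ACGTG, were searched on both strands (CACGT is the reverse complement). Of all 32851 promoter windows, 19.6% held ACGTG, and 7.15% held CACGTG, which contains it. Among the 10 members, 3 held ACGTG (Hk2, Ldha and Pgam1), and 1 of these held CACGTG (Ldha). A further 3 members (Hk1, Aldoa and Aldoc) held it only at another annotated start. The first 3 windows below are those with a match, which is in capitals, and the last 2 are those of the members that differed most between stages and had no match. They lie, in this order, at chr7:54100924-54101223 (plus strand), chr6:82724399-82724698 (minus strand), chr19:41986111-41986410 (plus strand), chr13:6647968-6648267 (minus strand) and chr11:78137450-78137749 (plus strand) of mm9.
Ldha: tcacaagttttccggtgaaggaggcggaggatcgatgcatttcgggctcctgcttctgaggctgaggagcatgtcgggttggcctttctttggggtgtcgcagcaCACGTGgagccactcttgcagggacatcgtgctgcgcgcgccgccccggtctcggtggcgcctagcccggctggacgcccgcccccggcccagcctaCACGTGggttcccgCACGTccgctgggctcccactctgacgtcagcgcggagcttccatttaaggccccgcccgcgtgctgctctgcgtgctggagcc
Hk2: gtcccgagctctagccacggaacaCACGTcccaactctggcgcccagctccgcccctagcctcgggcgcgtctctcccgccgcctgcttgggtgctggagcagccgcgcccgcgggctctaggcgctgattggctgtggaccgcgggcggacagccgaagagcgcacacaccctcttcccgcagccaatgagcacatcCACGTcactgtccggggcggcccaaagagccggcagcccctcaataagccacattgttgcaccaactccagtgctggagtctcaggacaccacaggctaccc
Pgam1: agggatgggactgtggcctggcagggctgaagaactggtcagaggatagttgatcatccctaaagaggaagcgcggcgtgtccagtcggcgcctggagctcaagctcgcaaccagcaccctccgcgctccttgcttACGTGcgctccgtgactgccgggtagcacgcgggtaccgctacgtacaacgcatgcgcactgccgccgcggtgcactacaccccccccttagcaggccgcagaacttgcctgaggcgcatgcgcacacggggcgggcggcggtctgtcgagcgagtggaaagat
Pfkp: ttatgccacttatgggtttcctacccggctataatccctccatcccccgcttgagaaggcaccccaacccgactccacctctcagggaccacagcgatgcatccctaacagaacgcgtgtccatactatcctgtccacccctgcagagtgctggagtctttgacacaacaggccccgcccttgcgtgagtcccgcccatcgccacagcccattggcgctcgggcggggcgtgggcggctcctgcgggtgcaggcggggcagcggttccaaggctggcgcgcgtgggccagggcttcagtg
Aldoc: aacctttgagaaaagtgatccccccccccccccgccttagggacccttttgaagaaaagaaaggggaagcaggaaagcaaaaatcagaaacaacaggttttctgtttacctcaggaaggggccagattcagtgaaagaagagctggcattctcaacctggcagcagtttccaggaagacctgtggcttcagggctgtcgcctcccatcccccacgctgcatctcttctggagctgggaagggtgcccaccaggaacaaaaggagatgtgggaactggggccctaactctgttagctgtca
Ldha had 3 separate places with the motif, all before the start, Hk2 had 2 and Pgam1 had 1. A match of letters is a description and does not show binding.

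In WT mESCs the most abundant members were enzymes of the lower part of the pathway and aldolase. Aldoa (1652 ± 157.9 FPKM, SD, n = 3), Eno1 (1426 ± 104.4) and Ldha (1370 ± 194.4) had the highest means, and their libraries overlapped. Pgam1 followed at 776.3 ± 105.6 FPKM, apart from both neighbours in this order. Ldhb (140.9 ± 50.83 FPKM), Pfkp (120.4 ± 26.4) and Pfkl (96.39 ± 11.23) overlapped one another. Hk2 was at 58.32 ± 8.199 FPKM and stood apart from Hk1 (22.63 ± 8.426) and Aldoc (14.03 ± 7.969), which overlapped. By rank among all genes of WT mESCs, Aldoa was at rank 83 and Aldoc at rank 5361.

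In WT NSCs the order was different. Ldha (613.2 ± 142.8 FPKM), Aldoa (546.9 ± 117.8), Eno1 (521.7 ± 84.41), Pgam1 (341 ± 106.9), Aldoc (247.1 ± 110.9) and Ldhb (135.3 ± 24.8) each overlapped the next gene in this order. Pfkl (48.84 ± 22.28 FPKM) overlapped Hk1 (26.2 ± 8.675), while Hk2 (12.12 ± 4.75) and Pfkp (3.338 ± 2.242) did not overlap their neighbours. Aldoc moved from rank 5361 in WT mESCs to rank 293 in WT NSCs, and Pfkp from rank 861 to rank 9451.

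**Figure D1:**
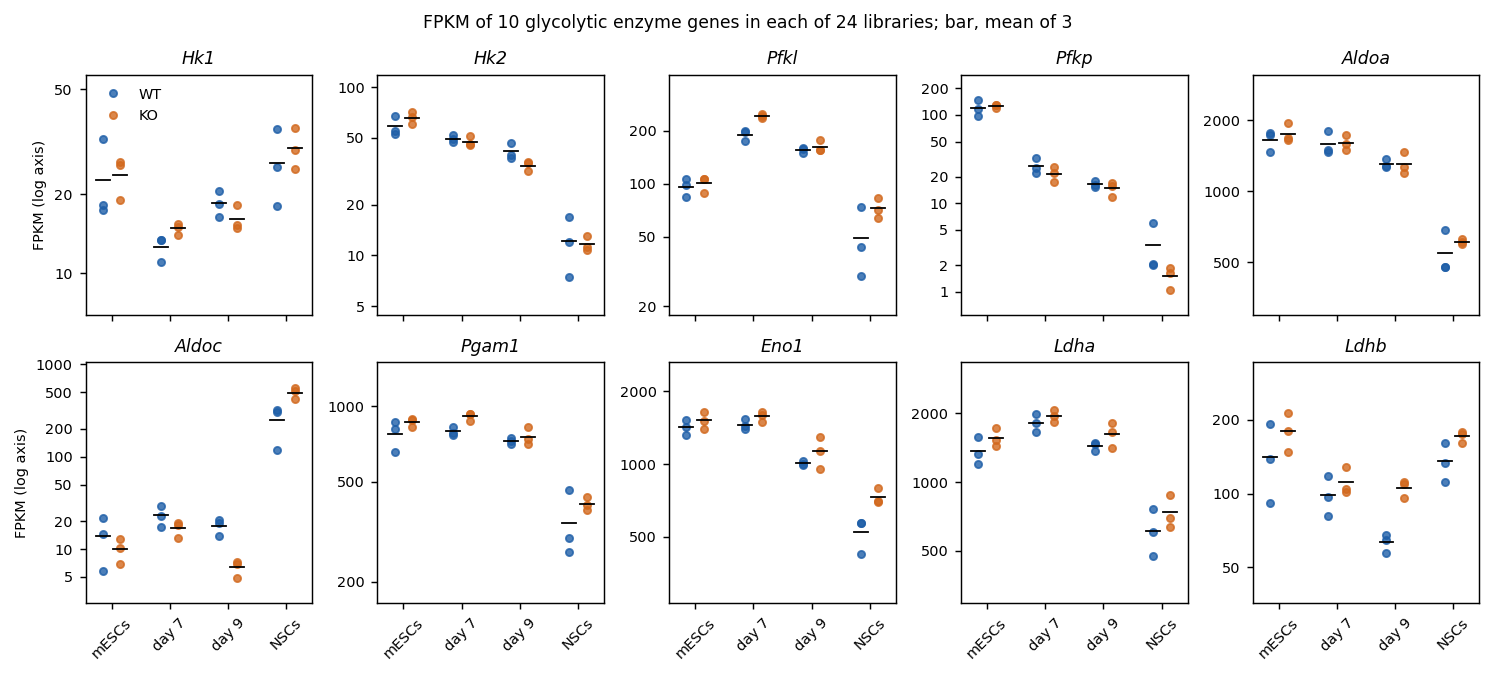
FPKM (log axis) of each of the 10 genes in each library, by stage, with WT in blue and KO in orange and a bar at the mean of 3 replicates. Pfkp falls from between 96.61 and 148.8 FPKM in mESC libraries to between 1.039 and 5.927 FPKM in NSC libraries, and Aldoc is highest in NSC libraries.

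Over the 24 libraries Pfkp varied the most, with its highest value 143 times its lowest, followed by Aldoc at 112 times. The highest value of Hk2 was 9.55 times its lowest and that of Pfkl 8.48 times. The other 6 members varied by 3.25 times (Hk1) to 4.35 times (Ldha).

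Differences between stages were tested with limma on log2(FPKM + 1), a scale that understates the change of low genes, with p-values adjusted over all 12105 genes. In WT NSCs against WT mESCs, 8 of the 10 members passed an adjusted p of 0.05, a set in a comparison where 75.2% of all tested genes passed. Of the 8, 7 were lower in NSCs and 1, Aldoc, was higher. The median log2 fold change of the members was −1.20, beside −0.01 for all tested genes. Among the 12105 genes, 36.9% passed as higher and 38.3% as lower.

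The hexokinases differed from each other. Hk2, the isozyme common in proliferating cells, was at 52.31, 67.66 and 54.99 FPKM in WT mESCs and at 12.06, 7.399 and 16.9 FPKM in WT NSCs. The groups did not overlap, and Hk2 fell by 2.24 ± 0.17 (SE) on the log2 scale (adjusted p = 1.1e-10). Hk1 was at 32.35, 18.12 and 17.42 FPKM in WT mESCs and at 17.96, 25.38 and 35.26 FPKM in WT NSCs. These groups overlapped, and its log2 fold change was 0.21 ± 0.21 (adjusted p = 0.381), while without WT mESCs replicate 1 it passed (0.49, adjusted p = 0.0326). The share of Hk2 in the summed FPKM of both hexokinases was 72.2% ± 9.14 in WT mESCs and 31.7% ± 8.82 in WT NSCs.

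Among the phosphofructokinase genes, Pfkp, the platelet-type subunit, was at 148.8, 96.61 and 115.9 FPKM in WT mESCs and at 2.058, 2.029 and 5.927 FPKM in WT NSCs. It fell by 4.90 ± 0.24 on the log2 scale (adjusted p = 8.3e-14), the largest fall of any member in this comparison. Pfkl, the liver-type subunit, was at 106.7, 84.43 and 98.04 FPKM in WT mESCs and at 29.62, 43.64 and 73.25 FPKM in WT NSCs. It fell by 1.06 ± 0.19 (adjusted p = 3.8e-05), and replicate 3 of the WT NSCs was the nearest to mESCs for both genes. Pfkp made up 55.3% ± 2.61 of the summed FPKM of both genes in WT mESCs and 6.14% ± 1.55 in WT NSCs. This share leaves out Pfkm, the muscle-type gene, which is given further below. The Pfkp locus (chr13:6547403-6647970) overlaps that of Pitrm1, which had a mean of 42.1 FPKM over the libraries, so reads could have been counted for either gene.

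The aldolases moved in opposite directions. Aldoa, the form most cells use, was at 1729, 1470 and 1756 FPKM in WT mESCs and at 478.8, 479 and 683 FPKM in WT NSCs, and fell by 1.61 ± 0.12 on the log2 scale (adjusted p = 1.3e-10). Aldoc, the brain form, was at 21.63, 5.735 and 14.71 FPKM in WT mESCs and at 119.2, 317 and 305 FPKM in WT NSCs. It was higher by 4.08 ± 0.38 on the log2 scale (adjusted p = 1.1e-08), and neither gene's groups overlapped. The share of Aldoc in the pair was 0.818% ± 0.424 in WT mESCs and 30.2% ± 9.96 in WT NSCs. In mESCs, day 7 and day 9 cells it was at most 1.62% in any library of either genotype.

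Pgam1 was at 658.8, 863.3 and 806.9 FPKM in WT mESCs and at 261.9, 298.5 and 462.7 FPKM in WT NSCs, and fell by 1.22 ± 0.14 on the log2 scale (adjusted p = 7.3e-08). Eno1 was at 1430, 1320 and 1529 FPKM in WT mESCs and at 570.1, 424.2 and 570.8 FPKM in WT NSCs, and fell by 1.46 ± 0.12 (adjusted p = 1.9e-10). Neither gene's groups overlapped.

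Ldha, the subunit that favours lactate formation, was at 1328, 1200 and 1582 FPKM in WT mESCs and at 602.8, 475.9 and 760.9 FPKM in WT NSCs. It fell by 1.18 ± 0.15 on the log2 scale (adjusted p = 2.8e-07). Ldhb was at 193, 91.5 and 138.1 FPKM in WT mESCs and at 111.8, 161.2 and 132.8 FPKM in WT NSCs, with overlapping groups and a log2 fold change of −0.01 ± 0.20 (adjusted p = 0.971). The share of Ldhb in the pair was 9.27% ± 3.00 in WT mESCs and 18.6% ± 5.82 in WT NSCs.

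**Figure D2:**
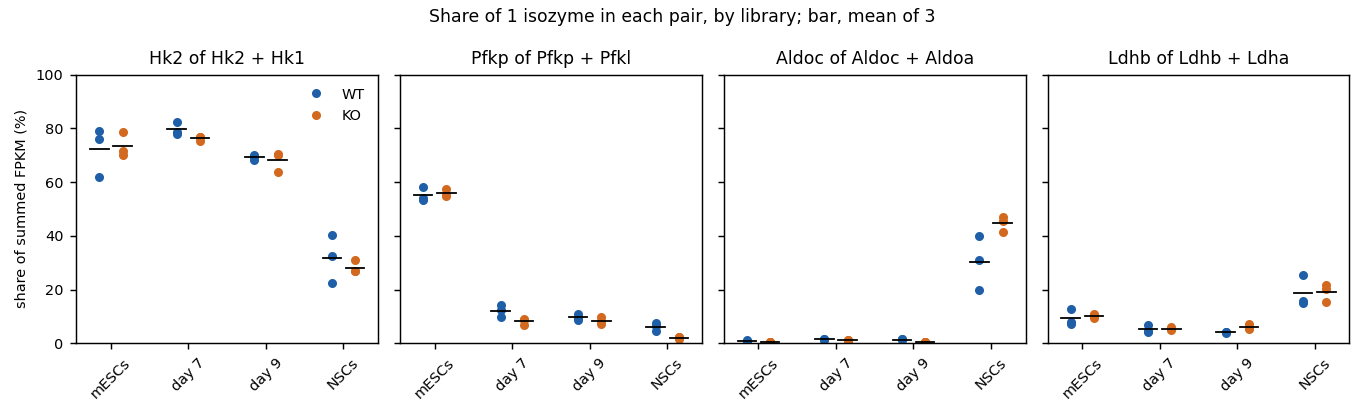
Share (%) of 1 isozyme in the summed FPKM of its pair in each library, by stage. WT is in blue and KO in orange, with a bar at the mean of 3. The pair of Pfkp and Pfkl leaves out Pfkm. The share of Pfkp is at least 53.4% in mESC libraries and at most 7.49% in NSC libraries, and the share of Aldoc is at least 19.9% in NSC libraries and at most 1.62% in all others.

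In KO NSCs against KO mESCs the same 8 members passed, in the same directions, where 76.0% of all tested genes passed. Pfkp fell from between 119.9 and 130.6 FPKM to between 1.039 and 1.88 FPKM, by 5.68 ± 0.24 on the log2 scale (adjusted p = 6.1e-15). Aldoc was higher, between 424.4 and 552.9 FPKM against between 6.988 and 12.88 FPKM, by 5.52 ± 0.38 (adjusted p = 1.2e-10). Hk2 fell by 2.40 ± 0.17, Aldoa by 1.51 ± 0.12, Ldha by 1.09 ± 0.15, Pgam1 by 1.08 ± 0.14, Eno1 by 1.05 ± 0.12 and Pfkl by 0.47 ± 0.19. The call of Pfkl (adjusted p = 0.0306) depended on the scaling: with every library scaled to the same FPKM sum its log2 fold change was 0.05 (adjusted p = 0.845). It was also lost without KO mESCs replicate 1 (−0.43) or 3 (−0.42) and without KO NSCs replicate 2 (−0.38) or 3 (−0.46).

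The FPKM sum itself fell along the series, from a median of 769704 in WT mESCs to 552341 in WT NSCs. When all libraries were scaled to an equal sum, this shifted the median log2 fold change of all genes by 0.37 in WT NSCs against WT mESCs and by 0.43 in the KO comparison. The share of higher genes among those that passed was 49.1% as deposited and 66.2% after scaling in WT, and 49.7% and 68.3% in KO. Under this scaling the 7 members that were lower in WT NSCs and the other 6 in KO NSCs remained lower and passed, by less. In WT Pfkl fell by 0.61, Ldha by 0.73 and Pgam1 by 0.77 on the log2 scale, and in KO Eno1 fell by 0.53, Pgam1 by 0.56, Ldha by 0.57 and Aldoa by 0.99. Hk1 then passed as higher, by 0.64 in WT (adjusted p = 0.0170) and by 0.83 in KO (adjusted p = 0.00271), and Ldhb passed as higher in KO, by 0.46 (adjusted p = 0.0460).

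The 10 members together made up 0.738%, 0.705% and 0.794% of all FPKM in the WT mESC libraries and 0.375%, 0.405% and 0.575% in the WT NSC libraries. In KO the shares were 0.806%, 0.769% and 0.839% in mESCs and 0.586%, 0.594% and 0.655% in NSCs. The NSC libraries lay below all others in both genotypes, and day 7 libraries, at 0.931% to 1.03%, were the highest.

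**Figure D3:**
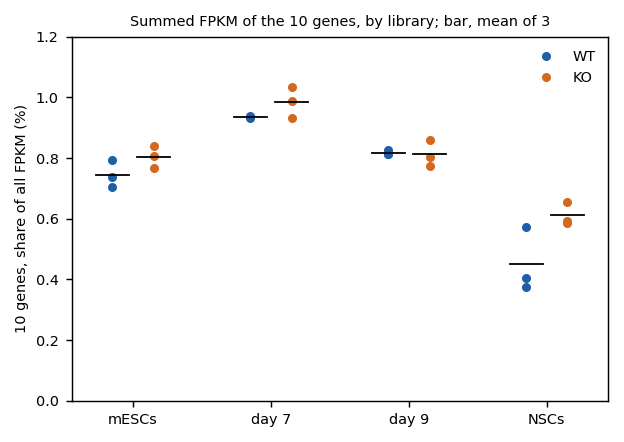
Summed FPKM of the 10 genes as a share (%) of all FPKM in each library, by stage, with WT in blue and KO in orange and a bar at the mean of 3. Every NSC library is at or below 0.655%, and every day 7 library at or above 0.931%.

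At day 7 the picture was mixed. In WT day 7 cells against WT mESCs 5 members passed, 2 higher and 3 lower, where 59.2% of all tested genes passed. With every library scaled to the same FPKM sum 5 also passed, but 4 higher and 1 lower, with Aldoc (1.04, adjusted p = 0.0279) and Eno1 (0.27, adjusted p = 0.0163) now among the higher. Aldoc passed also without WT mESCs replicate 1 (1.21, adjusted p = 0.0128). Pfkl was at 196.7, 176.1 and 199.4 FPKM at day 7, above every mESC library, and was higher by 0.98 ± 0.19 on the log2 scale (adjusted p = 0.000153). Pfkp was at 32.25, 25.06 and 21.98 FPKM, below every mESC library, and fell by 2.14 ± 0.24 (adjusted p = 1.6e-07). The share of Pfkp in the pair was thus already down to 12.2% ± 2.09 at day 7, while those of Hk2 (79.6% ± 2.46) and Aldoc (1.44% ± 0.253) were not near their NSC values.

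Ldha was higher at WT day 7, at 1648, 1808 and 1978 FPKM, by 0.41 ± 0.15 on the log2 scale (adjusted p = 0.0223). Its groups did not overlap, but the call was lost without WT mESCs replicate 1 or 2 or WT day 7 replicate 2 or 3, where the log2 fold change was between 0.32 and 0.41. Hk1 fell by 0.75 ± 0.21 (adjusted p = 0.00465) and Ldhb by 0.47 ± 0.20 (adjusted p = 0.0487). Under scaling to the same sum, neither passed: Hk1 was at −0.52 (adjusted p = 0.0635) and Ldhb at −0.23 (adjusted p = 0.355). Without WT mESCs replicate 1 Hk1 was at −0.47 (adjusted p = 0.0471). Ldhb also lost its call with no filter on low values (adjusted p = 0.0656), with eBayes without trend and robust settings (0.0594), in a fit of these 2 groups alone (0.156), without WT mESCs replicate 1 or 3 and without WT day 7 replicate 2 or 3, with values down to −0.21.

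In KO day 7 cells against KO mESCs 5 members passed, 1 higher and 4 lower, where 61.3% of all tested genes passed. Under scaling to the same sum 4 passed as higher and 1 as lower, with Aldoc (0.92, adjusted p = 0.0488), Eno1 (0.28, adjusted p = 0.0119) and Ldha (0.54, adjusted p = 0.000746) now among the higher. Aldoc (adjusted p = 0.0145) and Ldha (0.00731) passed also in a fit of these 2 groups alone, and Ldha without KO mESCs replicate 3 (0.0491). Pfkl was higher by 1.28 ± 0.19 on the log2 scale (251.3, 238.1 and 242 FPKM at day 7, adjusted p = 6.0e-06). Pfkp fell by 2.50 ± 0.24 (25.53, 22.3 and 17.32 FPKM, adjusted p = 1.2e-08), and both groups were apart. Ldhb fell by 0.68 ± 0.20, Hk1 by 0.63 ± 0.21 and Hk2 by 0.46 ± 0.17, and these 3 calls were lost under scaling to the same sum (adjusted p of 0.0594, 0.134 and 0.294). Hk1 lost it also without KO mESCs replicate 3, and Hk2 without KO mESCs replicate 2 or 3 or KO day 7 replicate 2 or 3. That scaling shifted the median of all genes by 0.19 in WT and 0.18 in KO, and the share of higher genes among those that passed from 49.1% to 66.3% in WT and from 48.1% to 63.3% in KO.

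**Figure D4:**
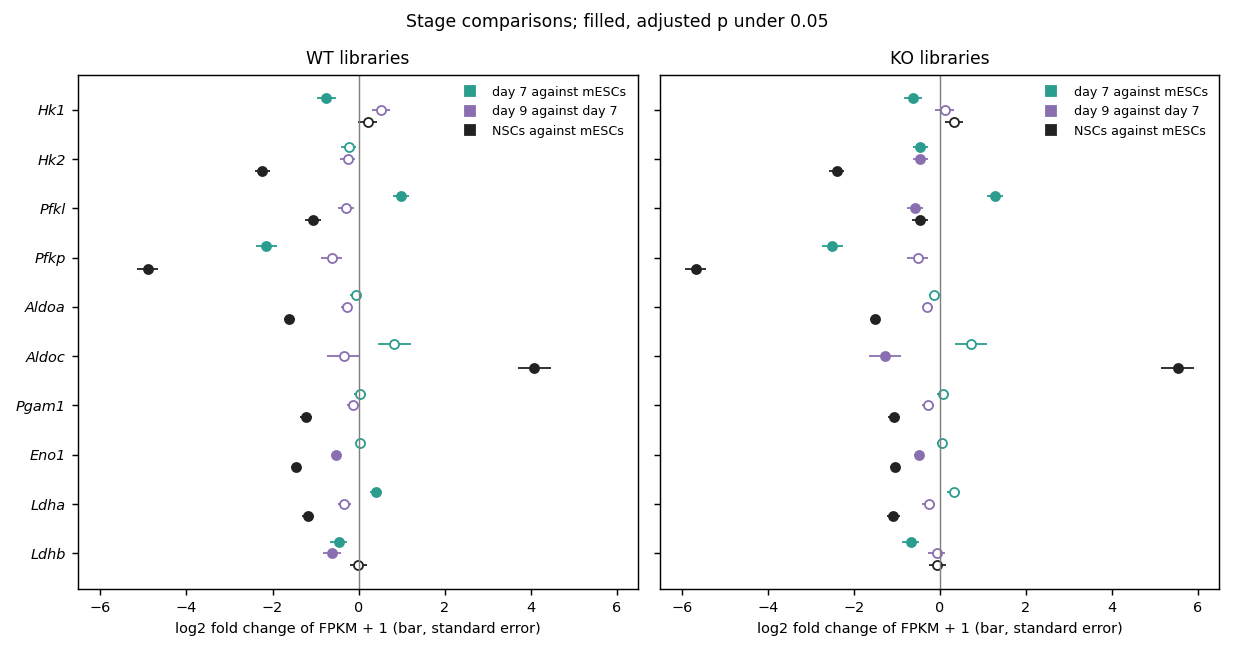
Log2 fold change of FPKM + 1 (x axis, bar: standard error) of the 10 genes in 3 stage comparisons, WT at left and KO at right, filled where the adjusted p was under 0.05. In NSCs against mESCs Pfkp lies at −4.90 (WT) and −5.68 (KO) and Aldoc at 4.08 and 5.52.

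Between day 7 and day 9 the members that passed on the deposited scale fell. In WT 2 members passed, both lower at day 9, where 33.8% of all tested genes passed. Eno1 was at 1393, 1437 and 1537 FPKM at day 7 and at 994.4, 1002 and 1027 FPKM at day 9, and fell by 0.53 ± 0.12 on the log2 scale (adjusted p = 0.00132). Ldhb was at 117.7, 80.66 and 96.91 FPKM and then at 67.87, 57.07 and 64.82 FPKM, and fell by 0.62 ± 0.20 (adjusted p = 0.0202). Its groups did not overlap, but the call was lost without WT day 7 replicate 1 or WT day 9 replicate 2, and under scaling to the same sum (−0.48, adjusted p = 0.0750). Hk1 passed as higher under that scaling (0.65, adjusted p = 0.0358) and in a fit of these 2 groups alone (0.52, adjusted p = 0.00688). That fit also called Pfkl (−0.29, adjusted p = 0.0129), Pfkp (−0.63, adjusted p = 0.00615) and Ldha (−0.33, adjusted p = 0.0225) as lower, and Pfkp passed without WT day 7 replicate 3 (−0.75, adjusted p = 0.0456). In all, 8 members lay lower in every WT day 9 library than in any WT day 7 library and Hk1 lay higher. Of all tested genes 54.2% did not overlap between these groups.

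In KO 4 members passed, all lower at day 9, where 30.6% of all tested genes passed. Eno1 fell by 0.49 ± 0.12 on the log2 scale (adjusted p = 0.00301), Pfkl by 0.58 ± 0.19 (adjusted p = 0.0241), Hk2 by 0.46 ± 0.17 (adjusted p = 0.0463) and Aldoc by 1.28 ± 0.38 (adjusted p = 0.0162). Aldoc went from 18.45, 18.99 and 13.28 FPKM at day 7 to 6.94, 7.258 and 4.922 FPKM at day 9. Without KO day 7 replicate 1 or 2 or KO day 9 replicate 3 its call was lost. Hk2 kept its call only in a fit of these 2 groups alone (adjusted p = 0.00199) and lost it under the other 11 alternatives, among them a pseudocount of 0.1 (adjusted p = 0.0590), no filter (0.0659), eBayes without trend and robust settings (0.0573) and leaving out any 1 of the 6 libraries. Pfkl lost it without any 1 of 5 of them. In the fit of these 2 groups alone Pfkp (adjusted p = 0.0308), Pgam1 (0.0297) and Aldoa (0.0416) passed as lower too, and Aldoa did so without KO day 9 replicate 1 (0.0457). Scaling to the same sum, which shifted the median of all genes by 0.12 in WT and 0.05 in KO, gave Hk2 an adjusted p of 0.118 and also ended the call of Pfkl (adjusted p = 0.0557). In WT it moved the share of higher genes among those that passed from 54.6% to 72.2%.

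KO was then compared with WT within each stage. In mESCs 0 members passed with limma, where 0.529% of all tested genes passed, and 0 members had an unadjusted p under 0.05, as 7.66% of all tested genes did. The largest value was that of Ldhb, at 179.8, 147.9 and 214.2 FPKM in KO and 193, 91.5 and 138.1 FPKM in WT, a log2 fold change of 0.40 ± 0.20 (adjusted p = 0.674). The groups overlapped for every member, while 11.0% of all tested genes did not overlap.

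At day 7 0 members passed with limma, where 3.68% of all tested genes passed, and again 0 had an unadjusted p under 0.05, against 13.9% of all tested genes. Hk1, Pfkl and Pgam1 lay higher in every KO library than in any WT library, in a comparison in which 11.6% of all tested genes did so. Pfkl was at 251.3, 238.1 and 242 FPKM in KO and 196.7, 176.1 and 199.4 FPKM in WT, a log2 fold change of 0.35 ± 0.19 (adjusted p = 0.451). Fitted on these 2 groups alone it passed (adjusted p = 0.0389).

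At day 9 2 members passed, where 6.68% of all tested genes passed. Aldoc was at 6.94, 7.258 and 4.922 FPKM in KO and at 13.93, 19.06 and 20.83 FPKM in WT. The groups did not overlap, and it was lower in KO by a log2 fold change of −1.36 ± 0.38 (adjusted p = 0.0367). Slc1a3, a radial glia and astrocyte gene, was also lower in KO (log2 fold change of −1.498, adjusted p = 0.000381), while the 4 astrocyte markers summed to only 0.8339 to 1.427 FPKM in KO and 1.495 to 2.636 FPKM in WT. Over the 5 NSC and radial glia markers the sum was 1409 to 1628 FPKM in KO and 1174 to 1456 FPKM in WT, and 2 of 5 passed, Slc1a3 and Olig2, both lower (3 under scaling to the same sum). The part of other cell types in the difference of Aldoc was not tested.

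Ldhb was at 109.2, 95.56 and 111.3 FPKM in KO day 9 cells and at 67.87, 57.07 and 64.82 FPKM in WT, with no overlap. It was higher in KO by 0.73 ± 0.20 on the log2 scale (adjusted p = 0.0269). Over all tested genes 32.3% did not overlap between these groups, and Hk2 was the third such member, at 35.19, 35.82 and 31.62 FPKM in KO and 38.14, 46.81 and 39.74 FPKM in WT (log2 fold change of −0.27, adjusted p = 0.474). The call of Aldoc was lost without any 1 library other than WT day 9 replicate 1, with values between −1.45 and −1.21. That of Ldhb was lost without WT day 9 replicate 2 (0.66) or 3 (0.75) or KO day 9 replicate 1 (0.70) or 3 (0.69), and under scaling to the same sum (0.62, adjusted p = 0.0695). That scaling moved the share of higher genes among those that passed from 38.6% to 22.7%. At day 9 the 4 mesoderm markers summed to between 15.69 and 43.37 FPKM in WT and between 3.933 and 14.95 FPKM in KO, and the 4 endoderm markers to between 27.21 and 50.01 FPKM in WT and between 2.684 and 11.56 FPKM in KO, and T, Meox1 and Foxa2 passed as lower. The neuron markers summed to between 452.5 and 492.2 FPKM in WT and between 242.9 and 338.9 FPKM in KO, and 1 of the 2 tested, Stmn2, passed as lower. The 4 neurectoderm markers summed to between 170.7 and 204.4 FPKM in WT and between 181.4 and 219.6 FPKM in KO, and 2 of 4 passed, Sox1 and Pax6, both higher, but 0 under scaling to the same sum. The part of these cell types in the difference of Ldhb was not tested.

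In NSCs 2 members passed, where 6.02% of all tested genes passed. Eno1 was at 795.2, 699 and 698.6 FPKM in KO and at 570.1, 424.2 and 570.8 FPKM in WT. The groups did not overlap, and Eno1 was higher in KO by 0.50 ± 0.12 on the log2 scale (adjusted p = 0.0115). The call was lost without WT NSCs replicate 2 (0.35, adjusted p = 0.0658), without KO NSCs replicate 1 (0.43, adjusted p = 0.0525) and in a fit of these 2 groups alone (adjusted p = 0.265). Gm5506, a near-identical copy of the Eno1 coding sequence elsewhere in the genome, was at 121.9, 114.7 and 99.64 FPKM in KO and 84.52, 67.88 and 92.05 FPKM in WT, and rose by 0.46 ± 0.11 (adjusted p = 0.0160). Reads of Eno1 and Gm5506 may not have been told apart.

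Pfkl was at 83.02, 63.36 and 70.91 FPKM in KO NSCs and at 29.62, 43.64 and 73.25 FPKM in WT. The groups overlapped through WT replicate 3, and Pfkl was higher in KO by 0.65 ± 0.19 on the log2 scale (adjusted p = 0.0476). With the replicate number as a block its adjusted p was 0.0554 (limma). No label states that same-numbered WT and KO libraries were paired, and this pairing was inferred from the values. It also lost the call without any 1 library other than WT NSCs replicate 3, where the log2 fold change ranged from 0.34 without WT replicate 1 to 0.74 without KO replicate 2, and it was 0.98 without WT replicate 3. Its adjusted p was 0.486 in a fit of these 2 groups alone, 0.0627 with no filter on low values and 0.0611 with eBayes without trend and robust settings.

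Aldoc and Pfkp did not pass in NSCs, although their groups were apart. Aldoc was at 424.4, 510.6 and 552.9 FPKM in KO and at 119.2, 317 and 305 FPKM in WT, with no overlap and a log2 fold change of 1.12 ± 0.38 (adjusted p = 0.0983). Pfkp was at 1.88, 1.039 and 1.609 FPKM in KO and at 2.058, 2.029 and 5.927 FPKM in WT, with no overlap and a log2 fold change of −0.69 ± 0.24 (adjusted p = 0.105). With the replicate block both passed, Aldoc at an adjusted p of 0.0450 and Pfkp at 0.0406, and with that block 1145 of all tested genes passed against 729 without it. Pfkp passed also without WT NSCs replicate 1 (−0.88) or 2 (−0.89), and Pgam1 passed only without WT NSCs replicate 3 (0.54, adjusted p = 0.00431). In this comparison 16.7% of all tested genes did not overlap. Scaling to the same sum moved the share of higher genes among those that passed from 42.2% to 54.4%.

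Markers of astrocytes, of NSCs and of endoderm were read beside Aldoc in WT and KO NSCs. The summed FPKM of the 4 astrocyte markers was 44.12 to 135.7 in KO and 7.838 to 40.6 in WT, and 1 of the 3 tested, S100b, passed (log2 fold change of 1.37, adjusted p = 0.0226). Gfap was at 7.505, 6.871 and 60.62 FPKM in KO and at 0.1511, 7.054 and 8.107 FPKM in WT. WT replicate 1, the lowest of the NSC libraries in Aldoc, was also the lowest in Gfap, S100b, Aqp4 and Aldh1l1. None of these 4 astrocyte markers was at 0 in every library of an NSC group. The 5 NSC and radial glia markers summed to 3964 to 4798 FPKM in KO and 5280 to 6987 FPKM in WT, with no overlap, and 2 of 5 passed, Vim and Sox9, both lower, but 0 under scaling to the same sum. The 4 endoderm markers summed to 1.592 to 3.996 FPKM in KO and 0 to 0.05968 FPKM in WT, all low values. Of the 2 endoderm markers tested 0 passed, and 1 passed as higher under scaling to the same sum. The part of these marker groups in the difference of Aldoc was not tested.

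**Figure D5:**
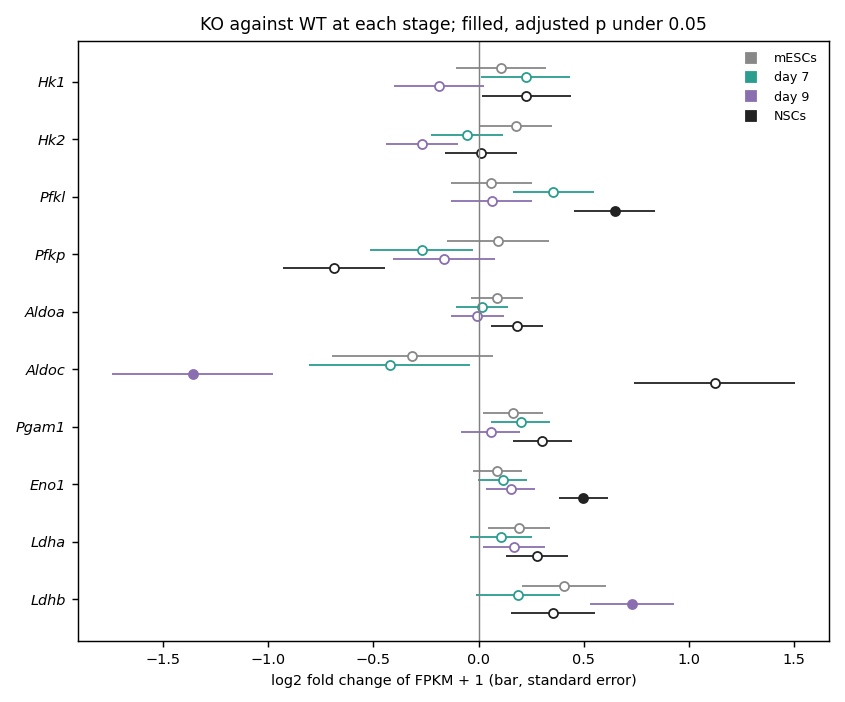
Log2 fold change of FPKM + 1 (x axis, bar: standard error) of KO against WT for the 10 genes at each of 4 stages, filled where the adjusted p was under 0.05. Aldoc lies at −1.36 at day 9 and at 1.12 in NSCs, and the filled points are Aldoc and Ldhb at day 9 and Pfkl and Eno1 in NSCs.

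Whether the KO effect differed between stages was tested by interaction. Against the effect in mESCs, 0 members passed with limma at day 7, at day 9 or in NSCs, where 1.68%, 2.68% and 2.26% of all tested genes passed. At an unadjusted p under 0.05 these counts were 0, 0 and 4, against 9.84%, 12.4% and 14.0% of all tested genes. The 4 were Aldoc (difference of log2 fold changes 1.44 ± 0.54, adjusted p = 0.209), Eno1 (0.41 ± 0.16, adjusted p = 0.242), Pfkp (−0.78 ± 0.34, adjusted p = 0.299) and Pfkl (0.59 ± 0.27, adjusted p = 0.332). In NSCs Aldoc passed without WT mESCs replicate 2 (1.93, adjusted p = 0.0288) and Pfkl without WT NSCs replicate 3 (0.92, adjusted p = 0.0145). Because Aldoc was lower in KO at day 9 and higher in KO NSCs, the effect in NSCs was also set against that at day 9, a comparison chosen after these values were seen. There 1 member passed, Aldoc, with a difference of 2.48 ± 0.54 (adjusted p = 0.00870), where 5.84% of all tested genes passed. The call was kept under all 18 alternatives, with differences between 2.02 and 2.72. Eno1 passed there under scaling to the same sum (0.51, adjusted p = 0.0168), and Pfkl without WT NSCs replicate 3 (0.92, adjusted p = 0.00565).

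The other enzymes of the pathway were taken from a list of 19 symbols, of which 18 were listed and 9 tested. Pgk1 lies on the X chromosome, which the authors removed, and was at 0. In WT NSCs against WT mESCs 2 of the 9 passed as higher and 4 as lower, where 75.2% of all tested genes passed. The median log2 fold change of the 9 was −0.36. Gapdh, which oxidizes glyceraldehyde phosphate, fell from a mean of 2348 to 1012 FPKM (log2 fold change of −1.22), Pkm2, the pyruvate kinase entry, from 1939 to 793.5 FPKM (−1.29), Gpi1, the phosphoglucose isomerase, from 288.7 to 218.2 FPKM (−0.43) and Adpgk, an ADP-dependent glucokinase, from 25.84 to 19.88 FPKM (−0.36). Pfkm, the muscle-type phosphofructokinase, went from 24.63 to 53.4 FPKM (1.10) and Eno3, the muscle enolase, from 2.275 to 4.151 FPKM (0.67). Under scaling to the same sum 2 passed as higher and 2 as lower: Gapdh (−0.77) and Pkm2 (−0.84) still passed, while Gpi1 (0.02, adjusted p = 0.899) and Adpgk (0.07, adjusted p = 0.629) turned in sign and did not. Pfkm was thus the most abundant of the 3 phosphofructokinase genes in WT NSCs by its mean, beside 48.84 FPKM for Pfkl, but the libraries of Pfkl ranged from 29.62 to 73.25 FPKM.

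At day 7 3 of these 9 passed as higher in WT and 0 as lower, where 59.2% of all tested genes passed. Tpi1, the triosephosphate isomerase, went from a mean of 379.7 to 756 FPKM (log2 fold change of 1.02), Eno2, the neuronal enolase, from 1.593 to 7.695 FPKM (1.92) and Eno3 from 2.275 to 26.4 FPKM (3.02). In WT day 9 against WT day 7 33.8% of all tested genes passed. There Eno2 rose further, to 29.81 FPKM (1.85), and Gpi1 rose as well (0.30). Gapdh (−0.30), Pkm2 (−0.31), Adpgk (−0.42) and Pgam2 (−0.69), the muscle phosphoglycerate mutase, fell. Scaling to the same sum left 6 of the 9 higher and 0 lower at day 7, and 2 higher and 0 lower at day 9 against day 7, so that none of these falls passed (Gapdh −0.16, Pkm2 −0.17, Adpgk −0.28, Pgam2 −0.63). In KO against WT, 0 of the 9 passed with limma at any stage, as deposited or scaled. As deposited, 0.529% to 6.68% of all tested genes passed, by stage.

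Among 8 tested genes of glucose, lactate and pyruvate transport, 2 passed as higher and 5 as lower in WT NSCs against WT mESCs. Of all tested genes 75.2% passed there. Under scaling to the same sum 2 of the 8 passed as higher and 3 as lower. The glucose transporter Slc2a3 was at 521.3, 340 and 444.6 FPKM in WT mESCs and at 1.112, 1.568 and 5.5 FPKM in WT NSCs, and fell by 7.03 ± 0.29 on the log2 scale (adjusted p = 1.2e-14). The glucose transporter Slc2a1 was at 162.8, 181.1 and 225.2 FPKM in WT mESCs, at 374, 415.1 and 469.2 FPKM at WT day 7 and at 22.69, 15.97 and 34.05 FPKM in WT NSCs. In KO against WT at day 7, where 3.68% of all tested genes passed, 2 of the 8 passed as lower. These were Brp44l, the entry of the mitochondrial pyruvate carrier gene Mpc1 (log2 fold change of −0.95, adjusted p = 4.3e-05), and the monocarboxylate transporter Slc16a1 (−0.62, adjusted p = 0.0223). Brp44l also passed as lower at day 9 (−0.82, adjusted p = 0.000112), where under scaling to the same sum Bsg, a chaperone of lactate transporters, passed as lower too (−0.36, adjusted p = 0.0183).

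Of 5 tested genes of gluconeogenesis 2 passed in KO NSCs against WT NSCs, where 6.02% of all tested genes passed. Fbp1, a fructose bisphosphatase that opposes phosphofructokinase, was at 8.158, 6.387 and 7.856 FPKM in KO and 1.698, 4.352 and 2.152 FPKM in WT (log2 fold change of 1.24, adjusted p = 0.00150). G6pc3, a glucose-6-phosphatase, was at 7.951, 7.393 and 6.138 FPKM in KO and 10.62, 18.76 and 22.11 FPKM in WT (−1.10, adjusted p = 0.000663). The groups of both genes were apart, as were those of 16.7% of all tested genes.

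In 4 further lists 0 genes passed in KO against WT at any stage with limma, but under scaling to the same sum Pdp1, a pyruvate dehydrogenase phosphatase (−0.60, adjusted p = 0.0377), and Egln1 (−0.47, adjusted p = 0.0389) passed as lower at day 9. Over all tested genes 0.529% to 6.68% passed in KO against WT, by stage. For the 4 lists the genes with the largest changes between WT NSCs and WT mESCs are given. In that comparison 75.2% of all tested genes passed. Of 4 tested enzymes that set the level of fructose 2,6-bisphosphate, an activator of phosphofructokinase, 2 passed as higher and 1 as lower: 9630033F20Rik, the Tigar entry, fell (−2.53) and Pfkfb3 rose (1.29). Of 9 tested genes of pyruvate dehydrogenase and its kinases and phosphatases, 2 passed as higher and 4 as lower, with the kinases Pdk2 (2.38) and Pdk4 (−1.74) changed the most. Of 7 tested genes of the pentose phosphate pathway 1 rose, Pgls (1.76), and 5 fell, among them Rpe (−1.15). Of 8 tested genes of the HIF system 4 rose and 2 fell, with Epas1, a HIF alpha subunit, at −2.39 and Egln1, an oxygen sensor, at 1.27. Under scaling to the same sum the counts of higher and lower genes in these 4 lists were 3 and 1, 4 and 3, 1 and 4, and 5 and 1.

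Of 10 tested genes induced by hypoxia outside glycolysis, 2 passed as higher and 5 as lower in WT NSCs against WT mESCs. At WT day 7 against WT mESCs 6 passed as higher and 1 as lower. Of all tested genes 75.2% and 59.2% passed in these comparisons. Under scaling to the same sum the counts of the list were 4 and 2 in NSCs, and 7 and 0 at day 7. In KO against WT 1 of the 10 passed, Ndrg1, in NSCs, where 6.02% of all tested genes passed. It was at 0.3891, 0.4178 and 0.9326 FPKM in KO and 1.414, 2.391 and 7.621 FPKM in WT. The log2 fold change was −1.40 (adjusted p = 0.00895, limma).

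For each member the genes with the most similar pattern were found by Pearson's r of log2(FPKM + 1) over the 24 libraries, which share stages and media. Aldoa was most like Slc2a3 (0.986) and Ifitm1 (0.979), Ldha like Slc2a1 (0.973) and Gm12070 (0.973), Pgam1 like Pkm2 (0.974) and Aldoa (0.960), and Pfkl like Mif (0.965) and Rragd (0.947). Hk2 was most like Sall4 (0.974) and Zfp280b (0.974), Pfkp like Ucp2 (0.986) and Trim25 (0.983), and Aldoc like Slc38a3 (0.973) and Gpt2 (0.966). The values were lower for Hk1 (Ctsb at 0.901 and Ext2 at 0.900) and Ldhb (Stim1 at 0.888 and Glo1 at 0.879). Eno1 was most like its copy Gm5506 (0.995) and Fkbp4 (0.969).

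Some members share sequence with other places in the genome, where reads may have been split. At an identity of at least 90% over at least 50% of the coding sequence, Ldha had 13 such places, Aldoa and Eno1 6 each, Pgam1 4 and Ldhb 1. Hk1, Hk2, Pfkl, Pfkp and Aldoc had 0. Between isozymes the coding sequences were further apart, with an identity of 77.1% for Aldoc and Aldoa, 73.4% for Ldhb and Ldha, 73.1% for Hk2 and Hk1 and 68.9% for Pfkp and Pfkl. The Hk1 locus overlaps 2210417K05Rik, which had a mean of 1.02 FPKM.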

How the data were processed

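The authors prepared stranded mRNA libraries from total RNA, trimmed single-end reads with Trim Galore 0.6.6, aligned them to mm9 with TopHat2 2.1.1, left out ribosomal and X-chromosomal reads, and used Cufflinks and Cuffdiff. What they deposited is 1 FPKM value per gene and library. Library normalization, strand in counting and read totals are not given in the sources used here. From values of low genes, relative reads per library were 0.81 to 1.15 (median library 1), and FPKM sums ranged from 504660 to 802938. Of 36 FPKM columns in the table, 12 belong to samples outside the 24 and were not used.

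Of 23119 genes listed, 12105 with a mean of at least 1 FPKM were tested. Groups were taken from the sample labels. All 8 groups were fitted together with limma 3.58.1 (R 4.3.3, statmod 1.5.0) on log2(FPKM + 1), without an intercept, with eBayes (trend and robust settings), two-sided, with Benjamini-Hochberg adjustment over all tested genes and a threshold of 0.05. The script was tested on simulated data. Isozyme shares are descriptions with no test. Alternatives were a pseudocount of 0.1, no filter, scaling to the same sum, a fit of the compared groups alone, eBayes without trend and robust settings, a replicate block and leaving out each library in turn. In KO against WT the deviations of same-numbered libraries in mESCs correlated at 0.29, 0.44 and 0.14 (replicates 1 to 3, numbers from the titles). In NSCs they correlated at 0.34, 0.18 and 0.24. All were over 0.1, so the numbers were treated as pairs at these stages, though no label or method states a pairing. Copies of coding sequences were searched with blastn 2.17.0 in NCBIM37, the same assembly as mm9. Named genes are all 10 members, the tested genes of the further enzyme list, of every other list those past the threshold in KO against WT or else the 2 with the largest change in WT NSCs against WT mESCs, and the 2 most similar genes of each member. Marker genes past the threshold in KO against WT are named at day 7, at day 9 and in NSCs. Sums are given for some stages only: pluripotency markers in mESCs and NSCs, mesoderm markers at day 7 and day 9, and neurectoderm and neuron markers at day 9. Sums of NSC markers are given in mESCs, at day 9 and in NSCs, of endoderm markers at day 7, at day 9 and in NSCs, and of astrocyte markers at day 9 and in NSCs. Muscle sums are not given. Zfp42, Gfap, Aqp4, Aldh1l1, Bsg and Pdp1 were named after their values were seen. The 2 largest changes of the pluripotency and muscle markers are not listed. The members and lists were chosen with earlier results of these data known.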

Additional observations from a re-analysis of the deposited data

Results flagged for a closer look

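The KO effect on Aldoc differed between day 9 and NSCs. Aldoc was lower in every KO library at day 9, a call that was lost without any 1 of 5 of the 6 libraries. It was higher in every KO NSC library, where the effect of 1.12 on the log2 scale did not pass (adjusted p = 0.0983, limma). With the replicate block, a pairing inferred from the values and stated by no label, it passed (adjusted p = 0.0450, limma). The difference between these effects, 2.48 on the log2 scale, passed the test of the difference itself (adjusted p = 0.00870, limma). The comparison was chosen after the values of Aldoc were seen. The summed FPKM of 4 astrocyte markers lay between 0.8339 and 1.427 in KO and between 1.495 and 2.636 in WT at day 9, and between 44.12 and 135.7 in KO and between 7.838 and 40.6 in WT in NSCs. Of the 3 tested astrocyte markers 0 passed at day 9 and 1 in NSCs. The 5 NSC and radial glia markers summed at day 9 to 1409 to 1628 FPKM in KO and 1174 to 1456 FPKM in WT. In NSCs they summed to 3964 to 4798 FPKM in KO and 5280 to 6987 FPKM in WT. At each of these stages 2 of the 5 passed, both lower in KO. The part of such cells in the difference was not tested.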

How the results depend on the processing

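Of 37 results in which a member passed, 22 passed under every alternative run and 15 lost the threshold under at least 1. Only Pfkl in KO NSCs against KO mESCs turned its direction, to 0.0472 after scaling to the same sum. That scaling left 1 member past the threshold in KO against WT at day 9, 2 in KO day 9 against KO day 7, and 2 in the KO effect in NSCs minus that at day 9. A fit of the compared groups alone gave 1 member in KO against WT at day 7, 0 in NSCs, 6 in WT day 9 against WT day 7 and 7 in KO day 9 against KO day 7. KO against WT in NSCs gave 1 member with no filter and 1 with eBayes without trend and robust settings. Leaving out 1 library gave 0 to 2 members in KO against WT at day 9, 0 to 3 in NSCs, 3 to 5 in WT day 7 against WT mESCs, 1 to 3 in WT day 9 against WT day 7, 1 to 4 in KO day 9 against KO day 7, 0 to 1 in the KO effect in NSCs minus that in mESCs and 1 to 2 in that effect minus the one at day 9. Where a left-out library leaves 2 in a group, the spread is still estimated over all groups. The cause of the other changes was not tested.

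The replicate block changed no count of members by over 1.5 times. It gave 3 members in KO against WT in NSCs, 3 in KO day 9 against KO day 7 and 6 in KO day 7 against KO mESCs. The members in KO against WT in NSCs changed, however. Eno1 kept its call, Pfkl lost it, and Aldoc and Pfkp gained one. Outside KO against WT in mESCs and NSCs no comparison had all correlations over 0.1 (range −0.22 to 0.20), so numbers were not taken as pairs. Those of WT NSCs against WT mESCs were all negative (−0.22, −0.13 and −0.14). In comparisons not taken as paired the block ended the call of Hk2 in KO day 9 against KO day 7. It added one for Ldha in KO day 7 against KO mESCs.

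Over all tested genes, KO against WT gave 64 calls in mESCs against 164 with no filter, 42 after scaling, 1 on the compared groups alone and 98 with the block. At day 9 it gave 809 against 1221 with no filter and 1377 on the compared groups alone, and in NSCs 729 against 58 on the compared groups alone. Leaving out 1 library gave 20 to 112 calls in mESCs, 273 to 521 at day 7 (446 with all), 449 to 752 at day 9 and 406 to 1352 in NSCs, where the highest was without WT replicate 1. The KO effect minus that in mESCs gave 203 calls at day 7 (330 with the block, 119 to 253 without 1 library), 324 at day 9 (165 with a pseudocount of 0.1, 537 with no filter, 181 to 360 without 1 library) and 274 in NSCs (57 on the compared groups alone, 504 with the block, 146 to 607 without 1 library). The effect in NSCs minus that at day 9 gave 707 (1107 with the block, 424 to 1260 without 1 library). With 3 libraries a group, a difference that did not pass is not shown to be absent.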
